A study of Mus musculus with 12 samples.

Results

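Visceral fat is covered by mesothelium, a single layer of flat cells with features of both epithelium and mesenchyme, and the 10 genes described here are markers of that layer. They were taken by symbol from a count table of 50559 genes: Msln, Upk3b, Upk1b, Krt8, Krt18, Krt19, Wt1, Lrrn4, Rspo1 and Gpm6a. All 10 were found, and all 10 passed the filter on low counts. The tissue sequenced as RNA was visceral white fat of mice on the FVB/N background, in 4 groups of 3 libraries, with littermates as controls. Transgenic mice (αMHC tTA x αMHC TGFb) on a high-fat diet carried 2 transgenes driven by the α-myosin heavy chain promoter, which is active in heart muscle: the tetracycline transactivator tTA and TGF-b1. Transgenic mice of the same genotype ate control chow. Wild type here means mice with αMHC tTA alone, on the high-fat diet or on control chow, so every group carried tTA and no group was without a transgene. The high-fat diet held 60% of its energy as fat (5.21 kcal/g) and the chow 17% (3.1 kcal/g). High-fat feeding began at 8 to 10 weeks of age and lasted 2 or 6 weeks; the labels do not say which duration each library had, nor whether 1 mouse gave 1 library, and p-values therefore measure only the spread between these libraries. The 4 groups ask what overexpressed TGF-b1 from heart muscle, and diet, change in this fat.

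Mesothelial cells secrete a lubricating film, hold a surface of keratin-bearing cells together by junctions, and keep the embryonic transcription factor Wt1 into adult life. In visceral depots the layer lies directly on the fat. Cultured mesothelial cells treated with TGF-b can lose keratins and take on a fibroblast-like form, known as mesothelial-to-mesenchymal transition.

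Libraries held between 20101240 and 21337312 gene counts, and levels are given as CPM, a gene's counts scaled to a library total of 1000000. In whole tissue, fewer mesothelial cells and less RNA of these genes per cell cannot be told apart. Adipocyte genes summed to 22230 CPM or more in every library, against 137.7 to 1022 CPM for the 10 mesothelial markers together. Of the other genes often used for mesothelium, Calb2 (calretinin) had at most 1 count in any library, while Muc16, Bnc1 and Krt7 were present in all 12. The third transgenic control replicate and the third wild-type high-fat replicate held summed muscle genes of 856.9 and 519 CPM, against 6.68 to 78.7 CPM in the other 10 libraries.

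One library stood apart in epithelial genes. The second transgenic control replicate held 123, 61.6 and 78.5 CPM of Upk1a, Upk2 and Upk3a, the uroplakins of bladder lining (2472, 1238 and 1578 counts), and 135 CPM of the basal-cell keratin Krt5. The third transgenic high-fat replicate had 101, 62 and 60 counts of the same uroplakins, and the 3 together came to at most 1.68 CPM in each of the other 10 libraries. The 8 listed genes of glandular and squamous epithelium summed to 216 CPM in that transgenic control replicate, to 37.0 CPM in the first wild-type control replicate and to between 2.76 and 8.40 CPM elsewhere. Their part in the keratin and Upk1b values was not tested.

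The promoters of 6 of the 10 genes were present in the RefSeq promoter table (GRCm38.p6), each 250 bases before to 50 after the annotated start, with Gpm6a listed at 2 starts. Those of Upk3b and Lrrn4 are shown as 2 of the genes that deviated together from library to library (r = 0.963, group means removed). The promoter of Rspo1 is not shown, though this gene deviated as closely with Upk3b (r = 0.966) and Lrrn4 (r = 0.982). Those of Krt8 and Krt18 are shown because these keratins are partners that followed Upk3b less closely (r = 0.166 and -0.0922, group means removed). Without the second transgenic control replicate these r were 0.583 and 0.226. Capitals mark a match, on either strand, to GGAATG (a core bound by TEAD factors), GTGGGNG (WT1) or CACCTG (an E-box bound by SNAI and ZEB repressors); no 2 marked matches overlap. Upk3b is at chr5:136038246-136038545 on the plus strand, Lrrn4 at chr2:132880813-132881112 on the minus strand, Krt8 at chr15:102004293-102004592 on the minus strand and Krt18 at chr15:102027966-102028265 on the plus strand, each printed 5′ to 3′ in the gene's own direction.
Upk3b: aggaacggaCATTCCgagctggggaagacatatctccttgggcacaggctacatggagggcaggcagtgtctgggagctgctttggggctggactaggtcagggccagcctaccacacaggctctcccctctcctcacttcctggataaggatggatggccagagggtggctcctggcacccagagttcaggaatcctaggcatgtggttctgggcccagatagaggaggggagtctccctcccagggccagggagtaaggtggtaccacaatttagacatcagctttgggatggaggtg
Lrrn4: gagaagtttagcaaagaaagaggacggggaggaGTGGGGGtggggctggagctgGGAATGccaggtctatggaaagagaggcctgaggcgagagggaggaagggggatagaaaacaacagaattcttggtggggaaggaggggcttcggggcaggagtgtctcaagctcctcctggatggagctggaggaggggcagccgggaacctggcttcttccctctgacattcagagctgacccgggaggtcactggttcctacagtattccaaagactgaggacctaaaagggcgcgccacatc
Krt8: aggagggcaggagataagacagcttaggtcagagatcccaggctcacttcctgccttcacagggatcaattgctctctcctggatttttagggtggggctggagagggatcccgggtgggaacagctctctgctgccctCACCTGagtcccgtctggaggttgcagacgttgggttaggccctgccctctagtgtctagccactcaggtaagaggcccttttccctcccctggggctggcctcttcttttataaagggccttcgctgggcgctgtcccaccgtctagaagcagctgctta
Krt18: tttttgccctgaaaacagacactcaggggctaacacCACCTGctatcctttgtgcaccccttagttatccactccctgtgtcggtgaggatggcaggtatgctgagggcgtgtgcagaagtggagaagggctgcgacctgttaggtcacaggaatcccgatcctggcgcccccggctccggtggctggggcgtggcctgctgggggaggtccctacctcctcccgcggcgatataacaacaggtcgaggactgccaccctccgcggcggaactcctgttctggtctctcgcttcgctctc
Upk3b held the TEAD core at position -241 from its start, on the opposite strand. Lrrn4 held a TEAD core at -196 and a WT1 match at -217. Both keratins held the E-box, Krt8 at -111 and Krt18 at -214. Over the 7 promoters of these genes, the TEAD core was in 3, the WT1 match in 1 and the E-box in 3. For the TEAD core and for the E-box alike, the third was the same promoter of Gpm6a. Of 32851 promoters of the same length, 14.7% held the TEAD core, 31.6% the WT1 match and 20.2% the E-box. The promoter of Rspo1 and the second promoter of Gpm6a held none of these letters in this window, which says nothing about the factors.

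Compared per kilobase of exon (RPKM, here CPM divided by exon length in kilobases), Upk3b had the highest mean level of the 10 in all 4 groups and Wt1 the lowest. The mean RPKM of Upk3b was 24.0 ± 13.03 in transgenic high-fat libraries and 71.7 ± 15.02 in transgenic control libraries (SD, n = 3 each). It was 38.0 ± 5.06 RPKM in wild-type high-fat libraries and 92.9 ± 24.0 RPKM in wild-type control libraries (SD, n = 3 each). Wt1 averaged 2.96 ± 1.14, 6.51 ± 0.885, 3.86 ± 0.242 and 6.19 ± 0.810 RPKM in the same 4 groups. Neighbours in the order rarely separated: Upk3b stood clear of the next gene in both wild-type groups, but its range overlapped that of Msln in transgenic high-fat and that of Krt19 in transgenic control libraries. Upk1b stood above Gpm6a and Gpm6a above Krt18 without overlap in wild-type high-fat libraries, and Gpm6a above Wt1 in transgenic control libraries. The ranges of all other neighbours overlapped. Upk3b alone made up 23.3% to 41.1% of the 10 genes' summed CPM in a library.

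**Figure D1:**
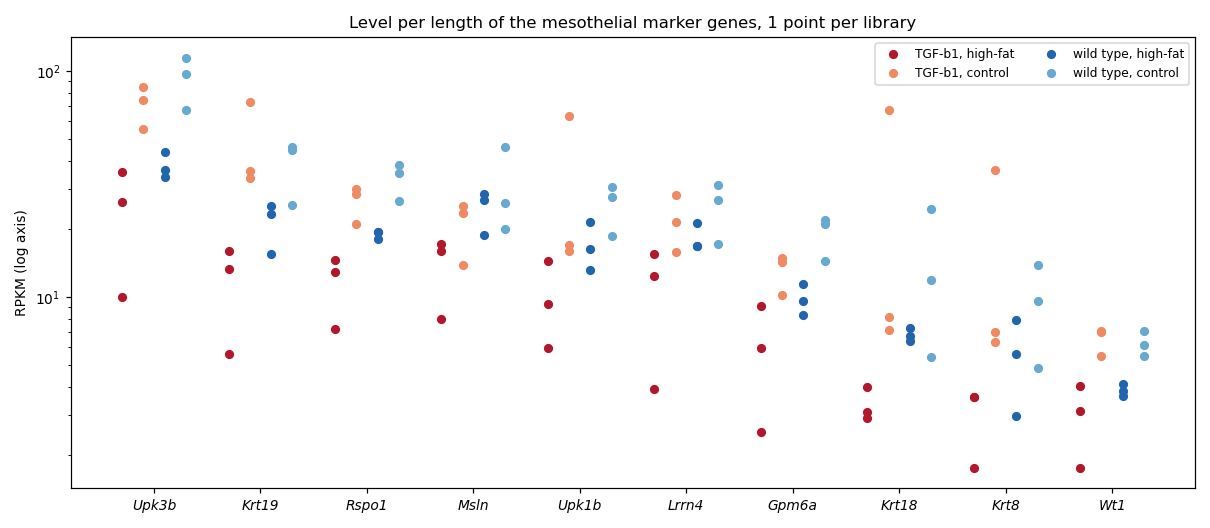
Level of each gene in RPKM on a log axis, with 1 point per library and genes ordered by their mean in wild-type control libraries. Upk3b is highest and Wt1 lowest on average in every group; for Krt8, Krt18, Krt19 and Upk1b, 1 transgenic control library lies above all other points.

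Levels of most of these genes were lower on the high-fat diet. Averaged over both genotypes, 8 of the 10 were lower on the high-fat diet than on control diet by edgeR's quasi-likelihood test (Benjamini-Hochberg adjusted p below 0.05), where 7.98% of the 16550 genes tested were called lower. Msln and Lrrn4 were not called. The median log2 change of the 10 was -1.13, against -0.02 over all genes tested. In transgenic tissue alone 6 of 10 were lower, at a background of 3.34% of all genes, and in wild-type tissue edgeR called none, at a background of 0.453%, while DESeq2 called 4, at a background of 2.31%, and limma-voom 3, at a background of 2.09%. The drop was not shown to differ between the genotypes, since edgeR's test of that difference called none of the 10.

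Among the surface proteins, Upk3b (chr5:136038496-136046487, plus strand), placed like the genes that follow on GRCm38, encodes a uroplakin, a membrane protein first known from bladder lining and in the mouse also a mark of mesothelium. It had 92.8, 126 and 35.3 CPM in transgenic high-fat libraries, against 264, 195 and 299.7 CPM in transgenic control libraries. Wild-type high-fat libraries had 129, 119 and 154 CPM, against 342, 237 and 405 CPM in wild-type control libraries. All 6 high-fat libraries lay below all 6 control libraries. The log2 change with diet was -1.55 (SE 0.34) in transgenic tissue (edgeR adjusted p = 0.0187) and -1.35 (SE 0.34) in wild-type tissue (edgeR adjusted p = 0.0756).

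Upk1b (chr16:38773184-38800328, minus strand) encodes a tetraspanin that pairs with uroplakins of the III type. Its levels were 19.5, 30.0 and 12.4 CPM in transgenic high-fat libraries, against 33.4, 132 and 35.3 CPM in transgenic control libraries. In wild-type tissue they were 27.4, 34.1 and 44.7 CPM on the high-fat diet, against 64.0, 39.0 and 58.1 CPM on control diet. The transgenic groups did not overlap and the wild-type groups did, and the value of 132 CPM belongs to the library with bladder uroplakins. The log2 change with diet was -1.71 (SE 0.50, edgeR adjusted p = 0.0541) in transgenic tissue, -0.67 (SE 0.31, edgeR adjusted p = 0.218) there without that library, and -0.67 (SE 0.49, edgeR adjusted p = 0.503) in wild-type tissue. The mean diet change over both genotypes was a log2 of -1.19 (SE 0.35, edgeR adjusted p = 0.0356), and -0.67 (SE 0.21, edgeR adjusted p = 0.0509) without that library.

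Msln (chr17:25748613-25754378, minus strand) encodes mesothelin, a surface glycoprotein that binds Muc16. It was at 48.9, 52.6 and 24.4 CPM in transgenic high-fat libraries, against 72.3, 42.3 and 77.7 CPM in transgenic control libraries. Wild-type high-fat libraries had 57.8, 81.9 and 87.8 CPM, against 79.9, 61.2 and 141 CPM in wild-type control libraries. High-fat and control values overlapped in both genotypes. Msln had the smallest diet change of the 10, with a mean log2 of -0.48 (SE 0.23, edgeR adjusted p = 0.168), and it was called in none of 21 alternative fits. In wild-type tissue its log2 of -0.37 (SE 0.32) became 0.002929 without the third wild-type control replicate.

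Lrrn4 (chr2:132868305-132880891, minus strand) encodes a membrane protein with leucine-rich repeats. Transgenic high-fat libraries had 46.2, 57.2 and 14.6 CPM, against 105, 58.5 and 80.1 CPM in transgenic control libraries. The wild-type values were 62.2, 62.1 and 78.5 CPM on the high-fat diet, against 99.96, 63.8 and 116 CPM on control diet. The transgenic groups were apart only by the narrow gap between 57.2 and 58.5 CPM, and the wild-type groups overlapped. Its mean diet change was a log2 of -0.77 (SE 0.27, edgeR adjusted p = 0.0632).

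Gpm6a (chr8:54954843-55060871, plus strand) encodes a membrane glycoprotein best known from neurons. Its levels were 19.2, 29.3 and 8.10 CPM in transgenic high-fat libraries, against 47.9, 32.7 and 45.6 CPM in transgenic control libraries. Wild-type tissue had 36.8, 26.6 and 30.9 CPM on the high-fat diet, against 67.9, 46.3 and 70.3 CPM on control diet. Neither genotype's groups overlapped. The mean diet change was a log2 of -1.08 (SE 0.23, edgeR adjusted p = 0.00962), while within a genotype it was -1.13 (SE 0.33, edgeR adjusted p = 0.0562) in transgenic and -1.03 (SE 0.33, edgeR adjusted p = 0.134) in wild-type tissue.

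**Figure D2:**
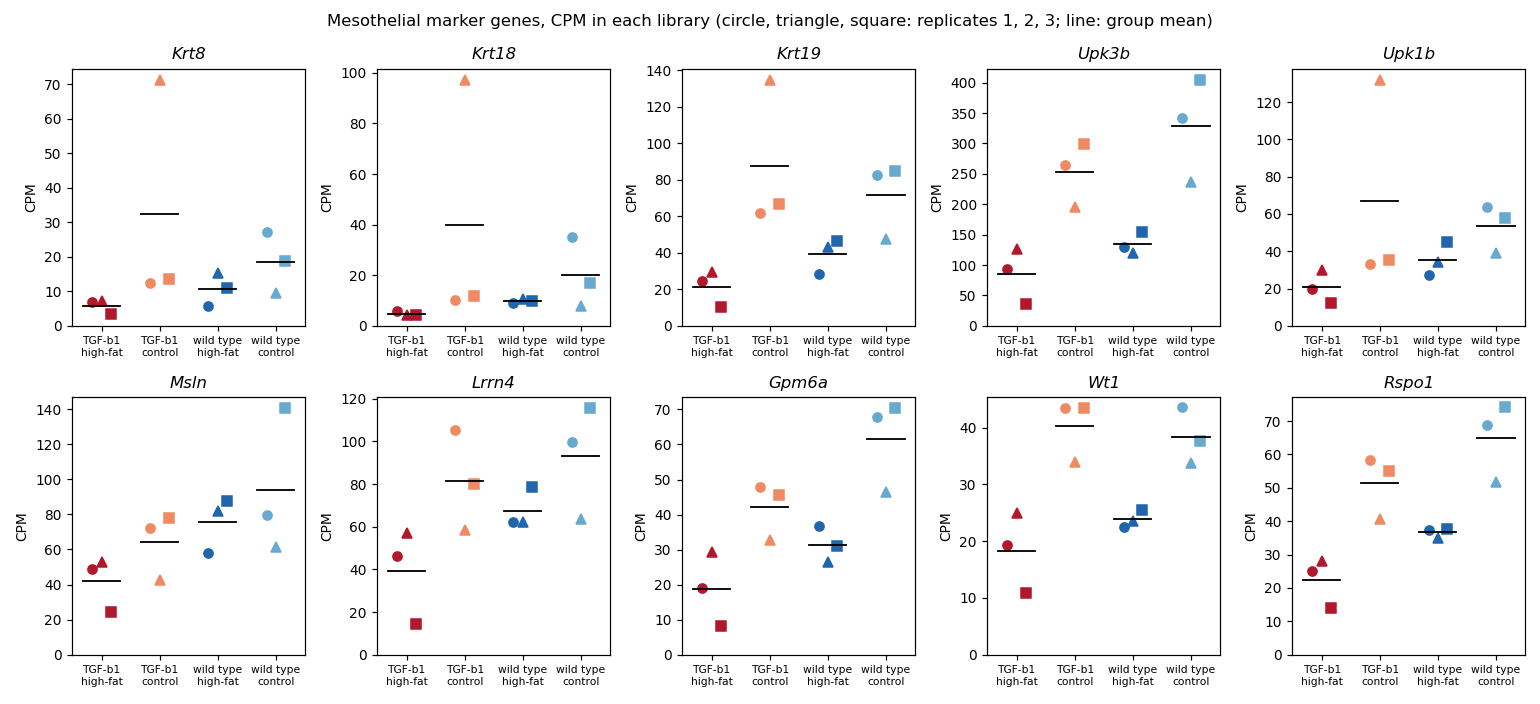
Level of each of the 10 genes in CPM in each library, by group, with 1 point per library. For Upk3b, Krt19, Wt1 and Rspo1 all 6 high-fat libraries lie below all 6 control libraries.

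Wt1 (chr2:105126529-105173616, plus strand) encodes a zinc-finger transcription factor needed for the embryonic mesothelium. It had 19.3, 24.9 and 10.9 CPM in transgenic high-fat libraries, against 43.5, 34.0 and 43.4 CPM in transgenic control libraries. It had 22.6, 23.6 and 25.5 CPM in wild-type high-fat libraries, against 43.7, 33.7 and 37.7 CPM in wild-type control libraries. Both genotypes separated by diet with no overlap. The mean log2 diet change was -0.93 (SE 0.16, edgeR adjusted p = 0.00256).

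Rspo1 (chr4:124986430-125009099, plus strand) encodes a secreted protein that binds Lgr receptors and strengthens Wnt signalling. Transgenic high-fat libraries had 25.0, 28.2 and 13.98 CPM, against 58.3, 40.7 and 55.2 CPM in transgenic control libraries. Wild-type high-fat libraries had 37.5, 35.1 and 37.7 CPM, against 68.8, 51.7 and 74.1 CPM in wild-type control libraries. All high-fat values were below all control values, and within the high-fat diet all transgenic values were below all wild-type values. The diet change was a log2 of -1.17 (SE 0.21, edgeR adjusted p = 0.00758) in transgenic and -0.89 (SE 0.21, edgeR adjusted p = 0.0606) in wild-type tissue. As a mean over both it was -1.03 (SE 0.15, edgeR adjusted p = 0.00115), the smallest adjusted p of the 10.

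The keratins form the filaments of the epithelial cytoskeleton, Krt8 (chr15:101996698-102004482, minus strand) as the partner of Krt18 (chr15:102028180-102032027, plus strand), with Krt19 (chr11:100140810-100148665, minus strand) as another type I keratin. Krt19 had 24.6, 29.5 and 10.3 CPM in transgenic high-fat libraries, against 62.0, 135 and 66.7 CPM in transgenic control libraries. The wild-type values were 28.6, 43.0 and 46.6 CPM on the high-fat diet, against 82.5, 47.3 and 85.1 CPM on control diet. Neither genotype's groups overlapped. The log2 change of Krt19 in transgenic tissue was -2.03 (SE 0.40, edgeR adjusted p = 0.011) and stayed called without the library with bladder uroplakins, at -1.52 (SE 0.35, edgeR adjusted p = 0.0329). Its mean diet change was -1.48 (SE 0.28, edgeR adjusted p = 0.00455).

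Krt8 had 7.03, 7.08 and 3.42 CPM in transgenic high-fat libraries, against 12.3, 71.1 and 13.7 CPM in transgenic control libraries. Wild-type tissue had 5.81, 15.4 and 10.97 CPM on the high-fat diet, against 27.2, 9.45 and 18.8 CPM on control diet. Krt18 was at 5.75, 4.17 and 4.44 CPM in transgenic high-fat libraries, against 10.3, 97.1 and 11.7 CPM in transgenic control libraries. The transgenic groups of both genes did not overlap, and the library with bladder uroplakins was far above the other 2 controls. In wild-type tissue Krt18 had 9.17, 10.49 and 9.64 CPM on the high-fat diet, against 35.0, 7.81 and 17.1 CPM on control diet, and both genes' wild-type groups overlapped.

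The largest fitted drops of the 10 were those of these 2 keratins in transgenic tissue, with a log2 of -2.48 (SE 0.67, edgeR adjusted p = 0.0401) for Krt8 and -3.07 (SE 0.81, edgeR adjusted p = 0.036) for Krt18. Without the library with bladder uroplakins they were -1.09 (SE 0.44, edgeR adjusted p = 0.169) and -1.14 (SE 0.43, edgeR adjusted p = 0.146), so neither call held. The calls also ended without the third transgenic high-fat replicate, the lowest library for 9 of the 10 genes, while the log2 changes were -2.21 (SE 0.78, edgeR adjusted p = 0.152) for Krt8 and -3.02 (SE 0.99, edgeR adjusted p = 0.125) for Krt18. The mean diet change of Krt8 was a log2 of -1.67 (SE 0.46, edgeR adjusted p = 0.028) and that of Krt18 -2.09 (SE 0.55, edgeR adjusted p = 0.0224). Without the library with bladder uroplakins these means were -0.97 (SE 0.29, edgeR adjusted p = 0.0481) and -1.11 (SE 0.29, edgeR adjusted p = 0.0261). Without that library and the first wild-type control replicate, the other one rich in epithelial genes, Krt8 had -0.77 (SE 0.28, edgeR adjusted p = 0.101) and was no longer called, and Krt18 had -0.77 (SE 0.18, edgeR adjusted p = 0.0251). Of loci related to Krt8 that could share its reads, the processed pseudogene Krt8-ps had at most 3 counts in a library. Gm36026, whose exons overlap 5.16% of the Krt8 exon bases on the opposite strand, also had at most 3. Reads aligned to more than 1 place, 6.72% to 11.8% of a library's total, are not in the gene counts. The low Krt8-ps counts therefore cannot show whether it shares reads with Krt8.

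**Figure D3:**
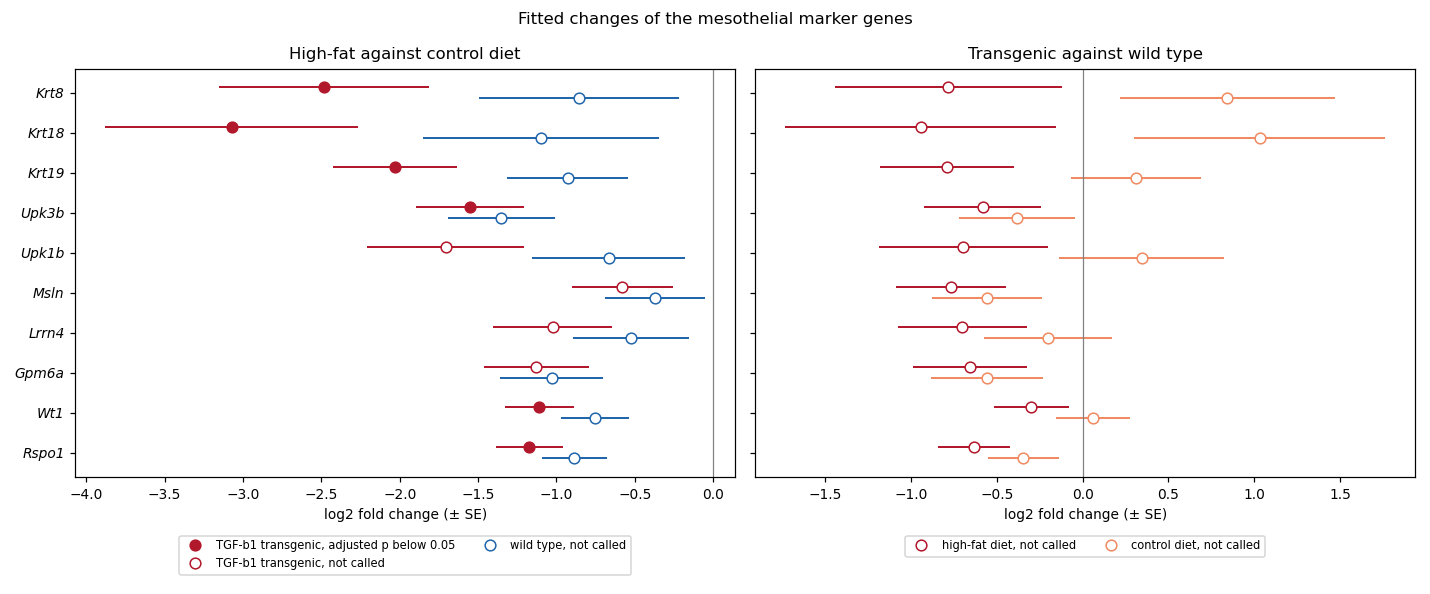
Log2 fold change with its SE for each of the 10 genes, for diet in each genotype and for transgenic against wild type on each diet. Filled points mark edgeR adjusted p below 0.05. All 6 filled points are for high-fat against control diet in transgenic tissue, and none occurs in wild-type tissue or for transgenic against wild type.

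In transgenic tissue 9 of the 10 genes had all 3 high-fat libraries below all 3 control libraries, with Msln as the exception, at a background of 14.4% of all genes tested. The 6 called were Upk3b, Krt8, Krt18, Krt19, Wt1 and Rspo1, and the median log2 change of the 10 was -1.36, against -0.02 over all genes. Krt19, Wt1 and Rspo1 were called in all 22 alternative fits, Upk3b in 18, Krt18 in 11, Krt8 in 10, Upk1b in 5, Gpm6a in 3, Lrrn4 in 1 and Msln in none. Leaving out the first transgenic high-fat replicate left 3 of the 10 called, where 1.57% of all genes were lower, against 3.34% with all libraries.

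In wild-type tissue all 10 log2 changes were below 0, as were 52.1% of those of all genes tested, with a median of -0.87 against -0.01 over all genes tested. After adjustment edgeR called none, and 5 of the 10 had an unadjusted p below 0.05, where 9.20% of all genes were lower at that level. Those with non-overlapping groups were Upk3b, Krt19, Wt1, Rspo1 and Gpm6a, 5 of 10 at a background of 7.95%. EdgeR called 4 when the third transgenic high-fat replicate was left out of the fit: Upk3b, Wt1, Rspo1 and Gpm6a, with adjusted p of 0.0158, 0.0249, 0.0197 and 0.0391. That library is in neither wild-type group, 17004 genes were tested without it, and 0.547% of them were called lower. The log2 changes of the 4 in that fit were -1.345, -0.75, -0.88 and -1.02, against -1.351, -0.75, -0.89 and -1.03 with all libraries. Their SE were 0.20, 0.13, 0.14 and 0.20 in that fit, against 0.34, 0.22, 0.21 and 0.33 with all libraries. The cause of the gained calls was not tested.

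Over both genotypes, Upk3b, Krt19, Wt1 and Rspo1 had all 6 high-fat libraries below all 6 control libraries, 4 of 10 at a background of 2.11%. Of the 8 called, Upk3b, Krt19, Wt1, Rspo1 and Gpm6a were called in all 21 alternative fits. Krt18 was called in 14 of them, Krt8 in 13 and Upk1b in 11. Leaving out the third transgenic high-fat, the first wild-type control or the first wild-type high-fat replicate left 5 called in each case, where 4.59%, 5.33% and 4.86% of all genes were lower, against 7.98% with all libraries.

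The authors' deposited table for diet in transgenic tissue called 4 of the 10 lower, where it called 9.88% of its genes in either direction. It gave no adjusted p for Krt18. The authors' deposited table for diet in wild-type tissue called 6 of the 10 lower, where it called 5.98% of its genes in either direction. In that authors' deposited table Upk3b had a log2 change of -1.35 (adjusted p = 1.04e-10), and Upk1b, Krt19, Wt1, Rspo1 and Gpm6a were the others called. Its size of change for Upk3b equals the edgeR value to 2 decimals, while the adjusted p differs.

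EdgeR called none of the 10 between transgenic and wild-type tissue. On the high-fat diet, all 10 were lower in transgenic tissue in fitted log2 change, between -0.94 for Krt18 and -0.30 for Wt1, with a median of -0.70, and 49.7% of all genes tested had a log2 below 0. EdgeR called none of the 16550 genes there (0%), so the count of 0 among the 10 carries no contrast with the background. EdgeR's unadjusted p was below 0.05 for 2 of the 10, Msln (log2 -0.77, SE 0.32, adjusted p = 0.714) and Rspo1 (log2 -0.63, SE 0.21, adjusted p = 0.714), where 2.98% of all genes were lower at that level. Without the third transgenic high-fat replicate the log2 changes were -0.50 (SE 0.31) for Msln and -0.39 (SE 0.16) for Rspo1, and the median of the 10 was -0.42. Msln, Krt18, Lrrn4 and Rspo1 had all 3 transgenic libraries below all 3 wild-type libraries, 4 of 10 at a background of 13.2%. DESeq2 and limma-voom called 0 of the 10. In the authors' deposited table for this comparison Krt18 was the 1 gene of the 10 called, at a log2 of -0.95 (adjusted p = 0.00647), where that table called 0.554% of its genes.

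On control diet none of the 10 was called by edgeR, none had an unadjusted p below 0.05 and DESeq2 and limma-voom called 0. EdgeR called 0.0363% of all genes in either direction there, and 5.78% were lower at an unadjusted p below 0.05. The median log2 change was -0.07. Krt8 and Krt18 had fitted log2 changes of 0.84 (SE 0.63) and 1.03 (SE 0.73), which were -0.55 (SE 0.44) and -0.90 (SE 0.43) without the library with bladder uroplakins, so their direction rested on it. The authors' deposited table called 0 of the 10 here, where it called 0.942% of its genes.

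Averaged over both diets, transgenic tissue was lower in Msln (log2 -0.66, SE 0.23), Gpm6a (log2 -0.61, SE 0.23) and Rspo1 (log2 -0.49, SE 0.15) at an unadjusted p below 0.05 only. These are 3 of 10, at a background of 6.04% of all genes. Their adjusted p in edgeR were 0.298, 0.337 and 0.25, and none of all genes tested was called (0%). DESeq2 and limma-voom called 0 of the 10 in that mean.

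The difference between the diet effects in transgenic and wild-type tissue was below 0 in fitted log2 for all 10, meaning a larger drop in transgenic tissue, between -1.98 (SE 1.08) for Krt18 and -0.10 (SE 0.46) for Gpm6a, where 48.7% of all genes were below 0. EdgeR called none of the 10 and none of all genes (0%), none of the 10 had an unadjusted p below 0.05 (2.58% of all genes were lower at that level), and DESeq2 and limma-voom called 0. The smallest adjusted p among the 10 was 0.864. The size of several of these differences rested on the library with bladder uroplakins. Without it the difference was -0.05 (SE 0.57) for Krt18, -0.24 (SE 0.59) for Krt8, against -1.63 (SE 0.91) with it, and -0.01 (SE 0.41) for Upk1b, against -1.04 (SE 0.69) with it. For Krt19 it was -0.60 (SE 0.47) without that library and -1.10 (SE 0.54) with it. The sign common to all 10 did not hold without the third transgenic high-fat replicate. In that fit the log2 diet changes in transgenic and wild-type tissue were -0.76 and -1.02 for Gpm6a, -1.174 and -1.345 for Upk3b, and -0.30 and -0.36 for Msln. These 3 genes thus had the smaller drop in transgenic tissue, and the other genes still had the larger drop there.

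**Figure D4:**
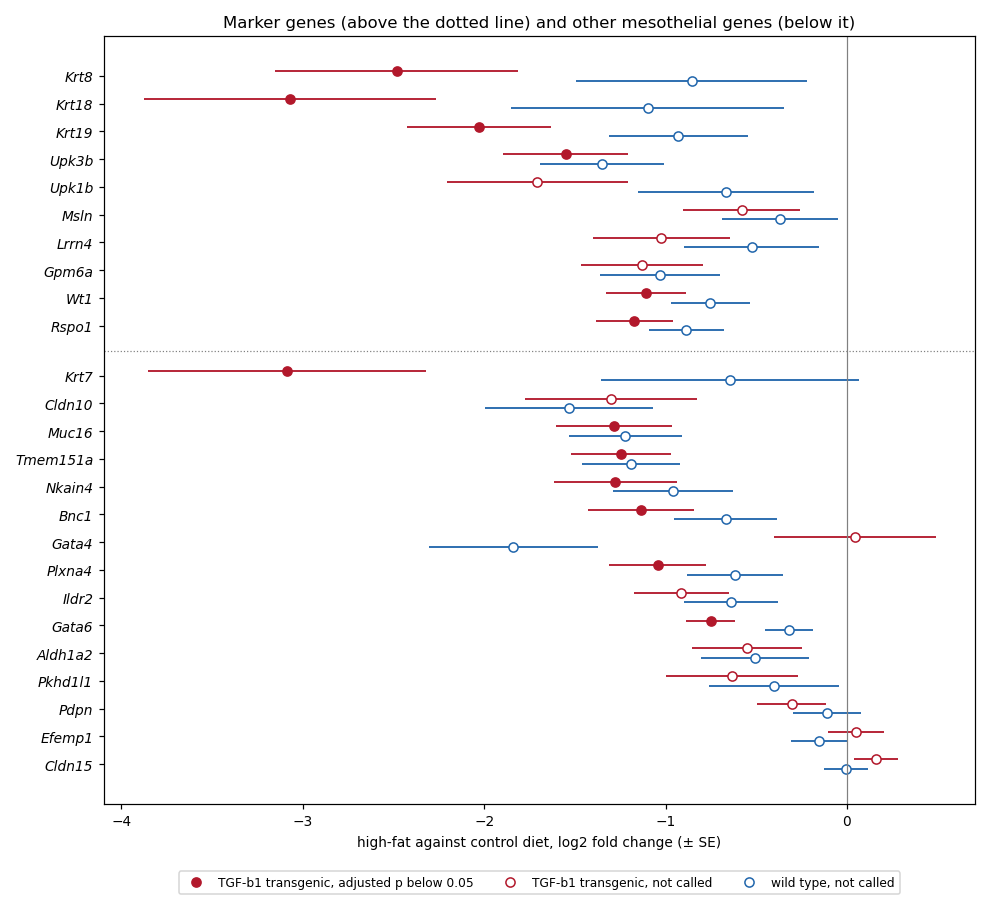
Log2 fold change of high-fat against control diet with its SE in transgenic and wild-type tissue, for the 10 markers and 15 other mesothelial genes below the dotted line, filled where edgeR's adjusted p was below 0.05. Filled points, 6 among the markers and 7 among the others, are all in transgenic tissue, and the test of the difference between genotypes called none of the 10 markers.

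Libraries differed from each other within groups in the same direction for several of the genes at once. The third transgenic high-fat replicate was the lowest of all 12 libraries for 9 of the 10 genes, with Krt18 as the exception. The second wild-type control replicate was the lowest of its group for all 10. The third wild-type control replicate was the highest of all 12 for 5 of the 10. The second transgenic control replicate was the highest of all 12 for Krt8, Krt18, Krt19 and Upk1b and at the same time the lowest of its group for the other 6.

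**Figure D5:**
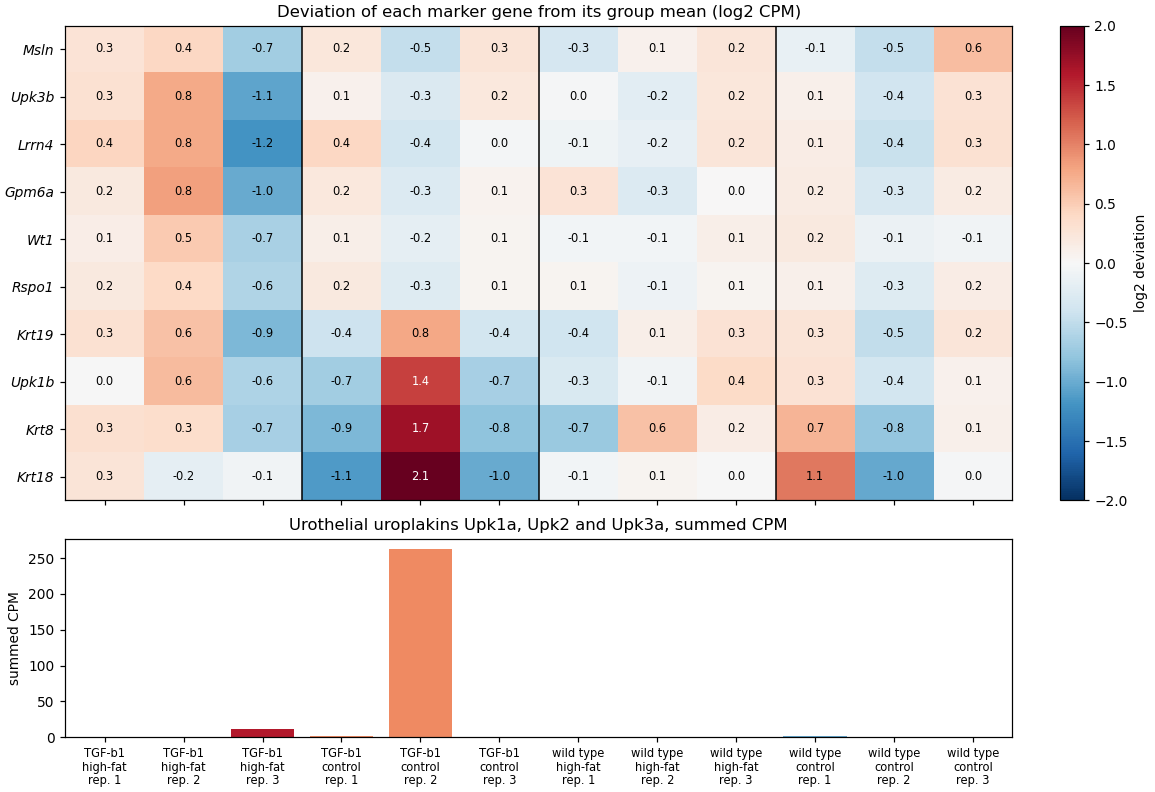
Deviation of each gene's log2 CPM from its group mean in each of the 12 libraries; the colour scale ends at -2 and 2. In the second transgenic control replicate Krt8, Krt18, Krt19 and Upk1b are above their group mean and the other 6 genes below it. In the third transgenic high-fat replicate every gene is below its group mean, Krt18 least (-0.0773).

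With group means removed, the deviations of Msln, Upk3b, Wt1, Lrrn4, Rspo1 and Gpm6a correlated with each other at Pearson r between 0.674 and 0.982 (15 pairs, 12 libraries, median 0.93). Those of Krt8, Krt18, Krt19 and Upk1b correlated at 0.66 to 0.911 (6 pairs, median 0.885), and at 0.371 to 0.933 (median 0.714) without the library with bladder uroplakins. Between the 2 sets r ran between -0.279 and 0.597 (24 pairs, median 0.162), and between 0.207 and 0.916 (median 0.722) without that library, and the second set's median within itself was then no higher than between the sets. The first set then ran between 0.655 and 0.984 (median 0.926). The sets were chosen after their values were seen, the points share library and depth, and no p is given.

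Summed over the 10 genes, transgenic high-fat libraries held 137.7 to 389 CPM, against 709 to 839 CPM in transgenic control libraries. Wild-type high-fat libraries held 417 to 526 CPM, against 597 to 1022 CPM in wild-type control libraries. Without the 3 keratins, the sums were 119.5 to 349 CPM in transgenic high-fat and 536 to 637 CPM in transgenic control libraries, then 373 to 459 CPM in wild-type high-fat and 533 to 901 CPM in wild-type control libraries. The high-fat and control sums did not overlap in either genotype, with the keratins or without them.

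The genes whose level over the 12 libraries was most like the mean of the 10 were Ppl (Pearson r = 0.979), Prkcz (0.974), Ezr (0.969), Zfp677 (0.969), Gjb5 (0.968), Ptpn13 (0.965), Tmem125 (0.965), Lsr (0.962), Col4a6 (0.961) and Vit (0.957). Ppl encodes periplakin, a linker of keratin filaments to the cell edge, Ezr encodes ezrin, which ties membrane to actin in microvilli, and Gjb5 a gap-junction protein. With group means removed the genes most alike included Ppl (0.972), Zfp677 (0.954), Morf4l1b (0.948), Tbxa2r (0.945), Zfp932 (0.939), Ezr (0.928), Lgals7 (0.927), Akap7 (0.924) and Armh4 (0.924). Ppl, Zfp677 and Ezr were in both rankings. The r values describe 12 libraries that share groups, depth and processing.

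Of 16 other genes known from mesothelium 15 were tested. In the mean of both genotypes 9 were lower on the high-fat diet, where 7.98% of all genes tested were, and the median log2 change of the 15 was -0.83. The 9 were Krt7, Cldn10, Muc16, Tmem151a, Nkain4, Bnc1, Plxna4, Ildr2 and Gata6. Muc16, which encodes the large mucin bound by mesothelin, had 19.2, 19.7 and 8.87 CPM in transgenic high-fat libraries, against 41.3, 26.6 and 51.1 CPM in transgenic control libraries. In wild-type tissue it had 27.8, 27.7 and 41.1 CPM on the high-fat diet, against 75.9, 46.0 and 94.4 CPM on control diet. Within each genotype no high-fat value reached a control value, and the mean log2 change was -1.25 (SE 0.22, edgeR adjusted p = 0.00358).

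Bnc1 encodes basonuclin, a zinc-finger protein of epithelial and germ cells, and its mean log2 change was -0.90 (SE 0.20, edgeR adjusted p = 0.0114). The transcription factor gene Gata6 had -0.54 (SE 0.09, edgeR adjusted p = 0.00329). The keratin Krt7 had 5.85, 10.6 and 5.69 CPM in transgenic high-fat libraries, against 18.7, 149 and 18.6 CPM in transgenic control libraries, with the value of 149 CPM in the library with bladder uroplakins. Its log2 change in transgenic tissue was -3.09 (SE 0.76, edgeR adjusted p = 0.0285), and -1.27 (SE 0.40, edgeR adjusted p = 0.0893) without that library. Its mean over both genotypes was -1.87 (SE 0.52, edgeR adjusted p = 0.0286), and -0.96 (SE 0.27, edgeR adjusted p = 0.037) without that library.

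Aldh1a2, Pkhd1l1, Cldn15, Pdpn, Gata4 and Efemp1 were not called in the mean, with log2 changes between -0.90 for Gata4 and 0.08 for Cldn15. Aldh1a2, the retinoic acid enzyme, averaged 7.65 CPM in transgenic high-fat and 11.4 CPM in transgenic control libraries (log2 -0.53 in the mean of both genotypes, SE 0.21, edgeR adjusted p = 0.107). In transgenic tissue alone 7 of 15 were lower, where 3.34% of all genes were, and 1 to 8 were when each library was left out in turn. The count was 1 without the third transgenic high-fat replicate (0.747% of all genes lower) and 8 without the second (2.41%). In wild-type tissue edgeR called none (0.453% of all genes lower), and DESeq2 and limma-voom called 4 each (2.31% and 2.09%). An unadjusted p below 0.05 in edgeR was found for 9 of 15, where 9.20% of all genes were lower at that level. All 15 log2 changes were below 0, as were 52.1% of those of all genes.

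Of 10 genes tied to mesothelial-to-mesenchymal transition, all tested, Vim and Zeb2 were higher on the high-fat diet in the mean of both genotypes and none was lower, with a median log2 change of 0.22. The 2 of 10 stand against 9.43% of all genes tested that were called higher. Vim encodes vimentin, the intermediate filament of mesenchymal cells, and it had 1804, 1701 and 1675 CPM in transgenic high-fat libraries, against 1030, 908 and 1392 CPM in transgenic control libraries. Wild-type high-fat libraries had 1674, 2035 and 1849 CPM, against 1315, 1278 and 1690 CPM in wild-type control libraries. The transgenic groups of Vim did not overlap and the wild-type groups did, and the mean log2 change was 0.49 (SE 0.10, edgeR adjusted p = 0.00844). Zeb2, a repressor that binds E-boxes, had 0.52 (SE 0.12, edgeR adjusted p = 0.0109), Snai1 had 0.40 (SE 0.15, edgeR adjusted p = 0.079) and Zeb1 -0.17 (SE 0.07, edgeR adjusted p = 0.106). Other cells of fat also express Vim and Zeb2, macrophages among them. The macrophage genes Itgax and Mpeg1 were higher on the high-fat diet in both genotypes. Of the 8 macrophage genes listed, 3 were called higher in the mean of both genotypes and 1, Trem2, lower. Summed, the 8 held 666.9 to 998.3 CPM in transgenic high-fat and 508.3 to 634.7 CPM in transgenic control libraries. The wild-type sums overlapped, at 750.4 to 967 CPM on the high-fat diet and 651.1 to 838.6 CPM on control diet. The part of other cells in the Vim and Zeb2 values was not tested.

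Beside Rspo1, 8 genes of its pathway were listed and 7 tested. In the mean of both genotypes 2 were lower on the high-fat diet, where 7.98% of all genes tested were. Both encode receptors of R-spondins. Lgr5 had 0.38, 0.84 and 0.14 CPM in transgenic high-fat libraries (8, 18 and 3 counts), against 2.62, 2.44 and 1.78 CPM in transgenic control libraries. Wild-type high-fat libraries had 0.67, 0.42 and 1.10 CPM, against 2.15, 1.54 and 0.997 CPM in wild-type control libraries. The transgenic groups were apart and the wild-type groups overlapped, and the mean log2 change was -1.73 (SE 0.37, edgeR adjusted p = 0.00888). Lgr6 averaged 1.73 CPM in transgenic high-fat and 7.56 CPM in transgenic control libraries. Its mean log2 change was -1.30 (SE 0.36, edgeR adjusted p = 0.03). The part of the library with bladder uroplakins in the Lgr6 values was not tested. Rspo4 had -1.45 (SE 0.89, edgeR adjusted p = 0.284) and Rnf43, a ligase that R-spondins hold off, -0.54 (SE 0.53, edgeR adjusted p = 0.521).

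Markers of other tissues were read beside the mean diet effect over both genotypes, where 7.98% of all genes tested were called lower. Of 6 glandular and squamous genes tested 3 were lower on the high-fat diet, Epcam (log2 -2.69, SE 0.65), Cdh1 (log2 -4.78, SE 1.38) and Trp63 (log2 -1.65, SE 0.51), with edgeR adjusted p of 0.0146, 0.0336 and 0.0438. Without the library with bladder uroplakins Epcam had -1.88 (SE 0.51, edgeR adjusted p = 0.0321), while Cdh1 (log2 -1.84, SE 0.94, edgeR adjusted p = 0.21) and Trp63 (log2 -0.75, SE 0.24, edgeR adjusted p = 0.0617) were not called. Their summed levels were 2.76 to 4.58 CPM in transgenic high-fat and 6.14 to 216 CPM in transgenic control libraries, then 3.70 to 5.92 CPM in wild-type high-fat and 4.68 to 37.0 CPM in wild-type control libraries. Krt5 was at 0 counts in 7 of the 12 libraries. Without both libraries rich in these genes, the second transgenic control and first wild-type control replicates, 6 of the 10 markers were called lower in the mean diet effect, where 4.62% of all genes tested were: Upk3b, Krt18, Krt19, Wt1, Rspo1 and Gpm6a. Of these, Krt18 had a log2 of -0.77 (SE 0.18) in that fit, against -2.09 (SE 0.55) with all libraries. In the same fit Epcam (log2 -1.28, SE 0.37, edgeR adjusted p = 0.052) and Trp63 (log2 -0.68, SE 0.26, edgeR adjusted p = 0.118) were not called, and Cdh1 did not pass the filter. Of 3 ovary and steroid-cell genes tested, 1 was lower (Inha, log2 -0.62, SE 0.18, edgeR adjusted p = 0.0361), at a summed 4.68 to 8.89 CPM in transgenic high-fat and 12.1 to 16.7 CPM in transgenic control libraries. The same sum was 10.4 to 12.4 CPM in wild-type high-fat and 10.4 to 15.7 CPM in wild-type control libraries. Fshr, which marks granulosa cells, had 0 counts in all 12 libraries, and the part of this list in the marker values was not tested.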

How the data were processed

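RNA had been extracted with a Quick-RNA MiniPrep kit and sequenced on DNBseq, per the labels' protocols. The authors aligned reads with HISAT2 2.2.0 to mm10, counted them per gene with HTSeq 2.0 and ran DESeq2 1.32.0, per the submitters' processing notes; for the annotation and the strand setting, the sources used here give nothing. The deposited files hold raw counts per gene and library. The authors' deposited comparison tables hold log2 fold changes and p-values, quoted only where named, and, unused here, a Wald score per gene and a mean signal of counts scaled by size factors. The 5 summary entries of each count file, 16.8% to 21.0% of its total, stayed out of library sizes and tests.

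Counts were tested with edgeR 4.0.16 (TMM scaling, filterByExpr with a minimum count of 10, group-means model over 12 libraries, quasi-likelihood test, Benjamini-Hochberg over 16550 genes, called at adjusted p below 0.05) in R 4.3.3, after tests on simulated data. Residual degrees of freedom were 8 and the biological coefficient of variation 20.1%. CPM is a gene's count over the library's gene total, RPKM divides it by GENCODE M21 exon length, and correlations use log2 CPM with a prior count of 2. With 3 libraries a group, the spread between them sets the precision. Alternatives were other scalings, DESeq2 1.42.0, limma-voom (limma 3.58.1), no filter, a replicate term, fewer groups and left-out libraries. The markers and the 17 gene lists were chosen with earlier results of these data known. Other genes named are all tested ones of the other mesothelial list, those of the 4 smallest p in the mean diet effect in each other list, genes of those lists used to describe a library, and the 10 most alike by each measure, of which 1 is not reported here. Sequences are RefSeq's.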

Additional observations from a re-analysis of the deposited data

How the results depend on the processing

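The count of markers called for diet in transgenic tissue was 6, where 3.34% of all genes were lower. It was 8 with DESeq2 (5.29% of all genes lower), 9 with no filter (2.54%) and 4 with limma-voom (2.76%). With only the 6 libraries compared in the fit it was 3 (1.51%), and without both libraries with bladder uroplakin counts it was 4 (0.54%). Leaving out each library in turn gave 3 to 7. In wild-type tissue it was 0, and 4 with DESeq2 (2.31% of all genes lower), 3 with limma-voom (2.09%), 4 with no filter (1.03%), 4 with only the 6 libraries compared (0.544%) and 4 without both libraries with bladder uroplakin counts (0.581%), an alternative chosen after seeing the data, against 0.453% lower in the edgeR fit of all 12; leaving out each library in turn gave 0 to 4. In the mean diet effect it was 8, and 5 with limma-voom (8.87% of all genes lower, against 7.98%), with 5 to 8 when each library was left out. The 3 comparisons of genotype and the difference of diet effects gave 0 markers under each alternative, 0 to 0 with a library left out. Among the other mesothelial genes, each library left out in turn gave 1 to 8 in transgenic tissue, 0 to 2 in wild-type tissue and 8 to 10 in the mean diet effect. Over all genes the same fits called 0.747% to 3.41%, 0% to 1.01% and 4.52% to 8.11% lower. The cause of these moves was not tested.

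Some directions turned. The log2 diet change of Msln in wild-type tissue was 0.002929 without the third wild-type control replicate, and ran down to -0.57 with the others left out in turn. The median log2 change of the 10 on control diet, transgenic against wild type, was 0.001013 with limma-voom, and between -0.31 and 0.001397 with each library left out, highest without the first wild-type control replicate. For Krt8 in that comparison the log2 was -0.55 without the second transgenic control replicate, -0.15 without both libraries rich in epithelial genes and -0.55 without both with bladder uroplakins, and for Krt18 -0.90, -0.21 and -0.90; with each library left out in turn the highest were 1.23 for Krt8 and 1.71 for Krt18. 

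Replicate numbers are not said to pair samples. Same-numbered libraries deviated together at a median r of -0.0242 (-0.11 to 0.27 over 18 pairs). The others had a median r of 0.00576 (-0.26 to 0.19 over 36 pairs). With the replicate number as a block, 4, 0 and 8 markers were called for diet in transgenic tissue, in wild-type tissue and in the mean, and 0 in each comparison of genotype. The number of 3 libraries per group and the counts of Krt8 and Krt18, near 5 CPM in transgenic high-fat libraries, limit the precision.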

Other observations

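Among the other lists, the mean diet effect over both genotypes showed the following. Of all genes tested, 9.43% were called higher and 7.98% lower there. Of 8 macrophage genes, Itgax (log2 2.32, SE 0.25, edgeR adjusted p = 0.000334), Mpeg1 (log2 1.38, SE 0.18, edgeR adjusted p = 0.000709) and Cd68 (log2 0.84, SE 0.18, edgeR adjusted p = 0.00983) were higher on the high-fat diet. Trem2, a lipid receptor of macrophages, was lower (log2 -1.02, SE 0.24, edgeR adjusted p = 0.0136). Of 8 adipocyte genes, Lep, which encodes leptin, was higher (log2 1.09, SE 0.19, edgeR adjusted p = 0.00329) and Pnpla2, the fat-cell triglyceride lipase, lower (log2 -0.52, SE 0.09, edgeR adjusted p = 0.00354). Adiponectin (Adipoq) was not called (log2 -0.30, SE 0.12, edgeR adjusted p = 0.102).

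Of 8 progenitor and fibroblast genes, Col1a1 (log2 0.60, SE 0.11) and Pdgfrb (log2 0.52, SE 0.14) were higher, and Dcn (log2 -0.65, SE 0.12) and Dpp4 (log2 -0.57, SE 0.11) lower, with edgeR adjusted p of 0.0035, 0.0213, 0.00494 and 0.00662. Dcn encodes decorin, a proteoglycan of collagen fibres, and Dpp4 marks progenitors of the fat interstitium. Of 6 endothelial genes, Cdh5 was higher (log2 0.41, SE 0.12, edgeR adjusted p = 0.0309). Of 6 B and T cell genes, Cd8a (log2 2.38, SE 0.55, edgeR adjusted p = 0.0127) and Cd3e (log2 1.73, SE 0.55, edgeR adjusted p = 0.0473) were higher, each under 1 CPM on average in every group. Of 6 Schwann cell genes, Mbp and Mal were lower (edgeR adjusted p = 0.0381 and 0.0436). The list summed to 210.3 CPM in the first wild-type control and 104.4 CPM in the second transgenic control replicate, both also rich in epithelial genes. Elsewhere it summed to between 47.5 and 80.9 CPM. The part of those libraries in the Mbp and Mal calls was not tested. Of 6 liver genes tested, Serpina1a, Ahsg, Apoa2 and Apoa1 were higher (edgeR adjusted p = 0.00239, 0.0134, 0.027 and 0.0319), and the list summed to 334.6 CPM in the second wild-type high-fat replicate, against 25.9 to 60.4 CPM in the other 11 libraries. Without that replicate Serpina1a (log2 2.34, SE 0.43, edgeR adjusted p = 0.00849) and Ahsg (log2 1.54, SE 0.34, edgeR adjusted p = 0.0174) were called, and Apoa2 and Apoa1 were not (edgeR adjusted p = 0.0692 and 0.0654). The 1 pancreas gene tested, Cela1, was higher (log2 0.56, SE 0.18, edgeR adjusted p = 0.0477). EdgeR called 0 of 6 muscle genes, 0 of 1 oviduct and uterus gene and 0 of 2 bladder uroplakins tested. In each of these lists 0 had an unadjusted p below 0.05. The 6 listed oviduct and uterus genes, of which 1 passed the filter, summed to 14.4 CPM in the first wild-type control replicate. In the other 11 libraries they summed to between 0.386 and 1.74 CPM. Their part in the marker values was not tested.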
